A study of Sus scrofa with 6 samples.

Results

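ATF4 and other genes of its stress response axis were examined in cultured pig granulosa cells under heat. The 33 genes are 7 transcription factors and feedback regulators, 2 subunits that direct the phosphatase of eIF2alpha, 5 brakes on growth or redox balance and secreted or surface proteins, 4 enzymes of asparagine and serine synthesis, 2 mitochondrial one-carbon enzymes and 13 cytosolic tRNA synthetases. They were chosen by symbol, as known genes of the ATF4 axis, and all 33 symbols matched 1 row each among the 35670 gene identifiers of the deposited count table. All 33 had enough reads to be tested, among 14242 tested genes.

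The study cultured primary granulosa cells, which line the follicle and nourish the oocyte, from pig (Sus scrofa) ovarian follicles of 3 to 6 mm. Cells were grown at 37 °C in medium with 10% serum to about 70% confluency. The heat group (n = 3 libraries) then spent 6 h at 42 °C and the control group (n = 3) stayed at 37 °C, both under CO2, after which RNA was taken for stranded mRNA sequencing. The labels number the libraries of a group as biological replicates without naming animals or flasks, so p-values here measure the spread between libraries, which may be partly technical.

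ATF4 is the main transcription factor of the integrated stress response. When one of the kinases of eIF2alpha senses heme shortage, double-stranded RNA, unfolded protein in the endoplasmic reticulum or missing amino acids, general translation slows while ATF4 mRNA is translated better. ATF4 then binds DNA with C/EBP partners and turns on genes that make or import amino acids, charge tRNAs, quench growth signalling and, under lasting stress, promote cell death. Because much of this control lies in translation, ATF4 mRNA need not follow ATF4 protein, and only RNA was measured here.

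Libraries held 18711440 to 29606378 counts. Within the controls, control 2 and control 3 were near-identical across genes (Pearson r = 0.990 over log2 CPM), and so were heat 1 and heat 2 (r = 0.991). Control 1 and heat 3 stood apart from their groups, and the level of each ATF4 axis gene listed above is therefore given per library. For some genes outside that list only group means or a log2 fold change are given. Of 15 granulosa markers 12 matched a symbol and 8 of these had enough reads to be tested. Above 9 CPM in every library were INHBA, an activin chain, at 154 to 387 CPM and KITLG at 62.6 to 274 CPM. So were CYP11A1, which makes pregnenolone, at 29.0 to 69.6 CPM and GATA4 at 9.56 to 82.1 CPM. CYP11A1 and GATA4 were higher in all heat libraries than in all controls, INHBA was lower in all of them, and KITLG overlapped. FSHR, the receptor of follicle-stimulating hormone, was at 2.14 CPM or less and was lower in all heat libraries than in all controls. INHA and AMH were at 0.31 CPM or less in every library. Summed stromal markers (8 matched) ranged from 6699 to 59118 CPM in controls and from 28083 to 87926 CPM in heat, and summed smooth muscle markers (5) from 9984 to 10253 and from 6727 to 14696 CPM. Summed leukocyte markers (8) ranged from 3.34 to 68.6 and from 1.31 to 4.39 CPM, with PTPRC, the pan-leukocyte CD45, at 0 in control 1 and in every heat library and CD3E at 0 in all. Summed surface epithelium markers (4) ranged from 3.93 to 22.4 and from 20.6 to 108.7 CPM, and summed theca, endothelial, oocyte and erythrocyte markers reached at most 30.3, 11.4, 20.2 and 0.0496 CPM, with INSL3, CDH5, ZP2 and ZP3 at 0 in all. In RNA from mixed cells, fewer cells of a type and less RNA per cell cannot be told apart. CPM stands for counts after scaling by library size and TMM factor, edgeR's correction for composition, and is not corrected for gene length, so levels are compared between libraries and not between genes.

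None of the 33 genes passed the test over all genes (edgeR quasi-likelihood, adjusted p below 0.05), while 6.71% of all tested genes were called higher in heat and 4.32% lower. Before adjustment 8 of the 33 had p below 0.05, or 24.2%, against 33.9% of all tested genes. DESeq2 called DDIT3 and CEBPB higher and NUPR1, NARS1 and LARS1 lower, against 14.9% of genes called higher and 12.6% lower, and limma-voom called 0 of the 33, against 7.41% and 5.14%. The median log2 fold change, heat minus control, was 0.26 over the 33 genes and 0.05 over all tested genes. The heat libraries lay wholly above the controls for 10 of the 33 (30.3%, against 20.9% of all genes) and wholly below for 4 (12.1%, against 16.8%). For 19 of the 33 the ratio of the highest to the lowest control exceeded the ratio between the group means, a share of 57.6% that is close to the 57.4% of all tested genes.

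The calls moved with the libraries kept. With control 1 and heat 3 left out, 15 of the 33 were called higher and 10 lower (45.5 and 30.3%), but that comparison of near-identical libraries also called 41.2% of all genes higher and 38.4% lower, so the members' share of calls was near the background. Without heat 3 alone, 5 were higher and 3 lower, against 18.4 and 17.7% of all genes. Without control 1 alone, 1 was higher (CEBPB) and 1 lower (NUPR1), against 19.6 and 12.3%. Leaving out control 2, control 3, heat 1 or heat 2 gave 0 calls among the 33, but then only 0, 0, 0.0475 and 0.0406% of all genes were called higher and 0% lower in each. Summing each near-identical pair into 1 sample also gave 0 calls, against 0.0129% higher and 0% lower. Control 1 and heat 3 were left out because they stood apart in these same data. Adjusted p-values given below for fits without them are to be read beside these shares of all genes. Control 1 was the lowest of the 6 libraries for 15 of the 33 genes, compared with 18.7% of all tested genes, and heat 2 and heat 3 were each the highest for 10, compared with 19.6 and 17.8% of all genes.

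**Figure D1:**
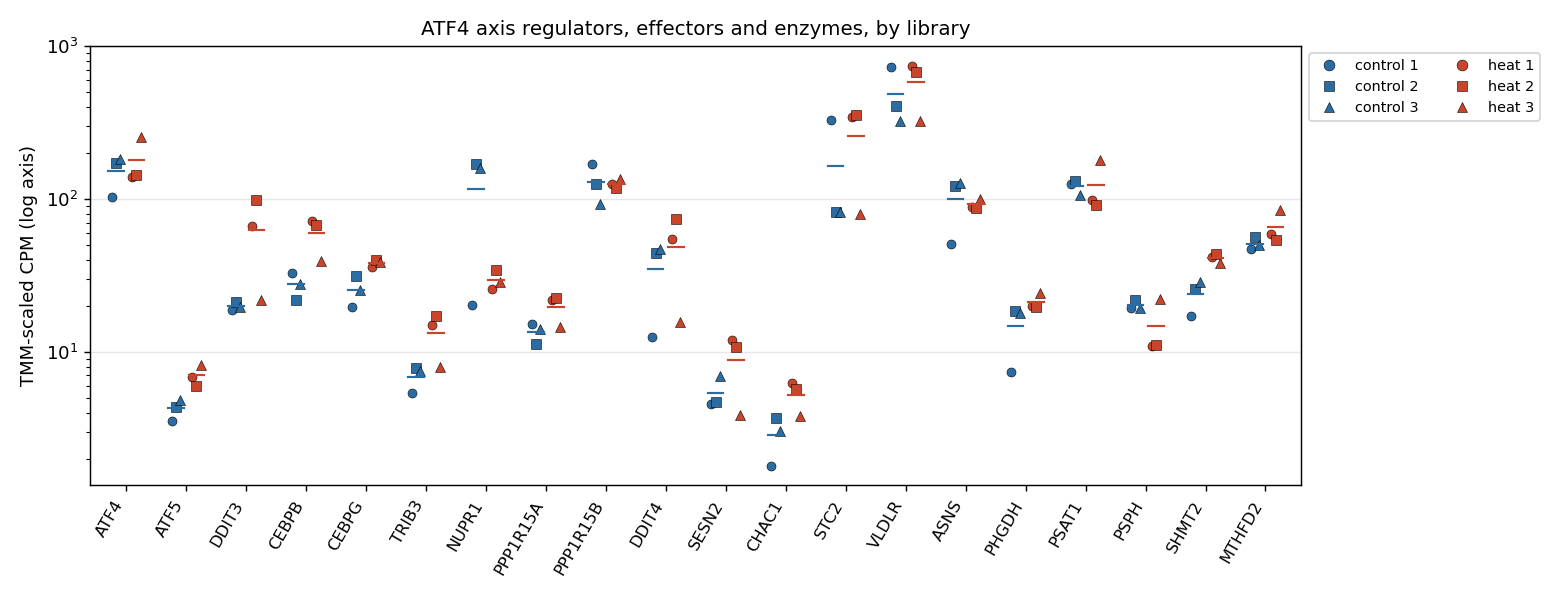
Level of each regulator, effector and enzyme (x axis) in TMM-scaled CPM (y axis, log scale), with 1 point per library, blue for control and red for heat, marker shape for the library number, and short lines for the group means (n = 3). Heat 3 lies near the controls for DDIT3 and TRIB3, control 1 lies far below the other controls for NUPR1 and DDIT4, and no gene passed the edgeR test.

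Among the transcription factors, the gene with the largest fold increase in mean was DDIT3, which encodes CHOP, the factor that links lasting stress to cell death. Controls 1 to 3 held DDIT3 at 18.7, 21.3 and 19.7 CPM, and heat 1 to 3 at 66.4, 99.0 and 21.9 CPM, the order in which libraries are given throughout. The controls were tight, heat 1 and heat 2 were well above them, and heat 3 lay just above the highest control. The log2 fold change was 1.65 ± 0.52 (SE; edgeR adjusted p = 0.0722), 2.04 ± 0.24 without heat 3 (edgeR adjusted p = 0.00897) and 1.99 ± 0.15 with control 1 and heat 3 left out (edgeR adjusted p = 1.2e-10). The last fit kept near-identical pairs and also called 41.2% of all genes higher. Without control 2, control 3, heat 1 or heat 2, DDIT3 was not called. DDIT3 lies on chromosome 5 of Sscrofa11.1 at 22785441 to 22789867 and shares 69 bases at its edge with MARS1 (22752405 to 22785509). Reads from the shared bases are uncertain because no source used here says whether counting used strand. MARS1, the methionine enzyme, overlaps ARHGAP9 as well and stood at 81.8, 60.9 and 58.3 CPM in controls and 57.1, 53.8 and 59.3 CPM in heat.

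TRIB3, a pseudokinase that CHOP and ATF4 induce and that dampens them in return, had the same arrangement of libraries. It was at 5.34, 7.77 and 7.49 CPM in controls and 15.1, 17.02 and 7.92 CPM in heat, so heat 3 exceeded the highest control by little. Its log2 fold change was 0.95 ± 0.38 (edgeR adjusted p = 0.121), and 1.21 ± 0.25 without heat 3 (edgeR adjusted p = 0.0199). CEBPB, a C/EBP family partner of ATF4, was at 32.98, 21.9 and 27.7 CPM in controls and 71.3, 67.7 and 39.2 CPM in heat. Here too the groups did not overlap and heat 3 was the lowest heat library. The log2 fold change of CEBPB was 1.11 ± 0.34 (edgeR adjusted p = 0.0704), 1.24 ± 0.35 without control 1 (edgeR adjusted p = 0.0424) and 1.32 ± 0.24 without heat 3 (edgeR adjusted p = 0.0159). Over the 10 genes whose heat libraries were all above the controls, heat 3 was the lowest heat library for 6, compared with 66.9% of the 2983 tested genes arranged in this way.

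Differences were smaller and more even across the heat libraries for CEBPG and ATF5. CEBPG, the small C/EBP protein that pairs with ATF4, was at 19.7, 31.2 and 25.4 CPM in controls and 36.0, 39.7 and 38.5 CPM in heat, and differed by 0.58 ± 0.29 on the log2 scale (edgeR adjusted p = 0.194). ATF5, a relative of ATF4 that serves mitochondrial stress signalling, was at 3.54, 4.37 and 4.86 CPM against 6.83, 6.00 and 8.16 CPM, and differed by 0.72 ± 0.32 (edgeR adjusted p = 0.159). Neither gene's groups overlapped. The annotated span of ATF5 (chromosome 6, 54945067 to 54950142) overlaps IL4I1 and NUP62, so the division of its reads is uncertain.

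ATF4 itself (chromosome 5, 8742964 to 8745752) did not separate the groups. Its level was 103, 173 and 182 CPM in controls and 139.9, 142 and 253 CPM in heat, with control 1 the lowest and heat 3 the highest library. The log2 fold change was 0.23 ± 0.39 with all libraries (edgeR adjusted p = 0.703) and -0.35 ± 0.12 with control 1 and heat 3 left out (edgeR adjusted p = 0.0129), so its direction turned with those libraries. It was also -0.02 without control 1 and -0.13 without heat 3.

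NUPR1, a small stress-induced chromatin protein, had the largest difference of the 33 and the opposite sign. Its level was 20.4 CPM in control 1 but 169 and 159 CPM in the other controls, while the heat libraries held 25.6, 34.2 and 28.7 CPM. Control 1 thus lay below every heat library, and the mean control level came from control 2 and 3. Its log2 fold change was -1.98 ± 0.69 (edgeR adjusted p = 0.0930) and -2.50 ± 0.26 without control 1 (edgeR adjusted p = 0.00574). Summed over 8 leukocyte markers, control 2 and 3 were also high, at 34.1 and 68.6 CPM against 3.34 CPM in control 1. LYZ, the lysozyme gene, made up 26.3 and 54.1 CPM of those sums, and CD14, at 1.80 CPM in control 1 and 1.14 and 1.69 CPM in the other controls, did not follow them. The part of leukocyte RNA in the NUPR1 level was not tested. The span of NUPR1 overlaps LOC110260087, so the division of its reads is uncertain.

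The median log2 fold change of the 7 regulators was 0.72, and 0.45 with control 1 and heat 3 left out, against 0.05 and 0.06 over all genes.

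The phosphatase that resets eIF2alpha uses an inducible subunit, PPP1R15A (GADD34), and a constitutive one, PPP1R15B (CReP). PPP1R15A was at 15.2, 11.2 and 14.1 CPM in controls and 21.7, 22.4 and 14.5 CPM in heat. Heat 1 and 2 lay above the controls and heat 3 among them, and the log2 fold change was 0.53 ± 0.30 (edgeR adjusted p = 0.247). PPP1R15B was at 168, 125 and 92.9 CPM against 126, 117 and 135 CPM, with a log2 fold change of -0.03 ± 0.32 whose sign changed with the scaling.

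Among the effectors that restrain growth, DDIT4 and SESN2 inhibit the growth kinase mTORC1. DDIT4 was at 12.6, 44.2 and 47.1 CPM in controls and 54.9, 74.3 and 15.7 CPM in heat, so control 1 and heat 3 were the lowest libraries of their groups and lay far from the rest. SESN2 was at 4.54, 4.67 and 6.89 CPM in controls and at 11.9, 10.8 and 3.88 CPM in heat, with heat 3 below every control. CHAC1, which degrades glutathione and is among the most direct readouts of ATF4 and CHOP, was at 1.80, 3.71 and 3.02 CPM against 6.23, 5.67 and 3.79 CPM. CHAC1 had few reads, with 27 in control 1 and 125 in heat 1. Its groups did not overlap, but heat 3 and control 2 almost met, and the log2 fold change was 0.87 ± 0.41 (edgeR adjusted p = 0.173). SESN2 differed by 0.72 ± 0.47 on the log2 scale, with an edgeR adjusted p of 0.304, and 1.06 ± 0.28 without heat 3 (edgeR adjusted p = 0.0351). That of DDIT4 was 0.48 ± 0.66 (edgeR adjusted p = 0.626).

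STC2, a secreted glycoprotein hormone, and VLDLR, a receptor for lipoproteins and reelin, divided the libraries in another way. Controls held STC2 at 328, 81.5 and 82.6 CPM, and heat libraries at 341, 354 and 79.0 CPM. VLDLR was at 725, 404 and 324 CPM in controls and 740.4, 679.9 and 325 CPM in heat. For both genes control 1 was level with heat 1 and 2, and heat 3 was level with control 3, so the groups overlapped. The log2 fold change of STC2 was 0.65 ± 0.74 with all libraries (edgeR adjusted p = 0.549) and 2.06 ± 0.13 with control 1 and heat 3 left out (edgeR adjusted p = 1.15e-12), and that of VLDLR was 0.26 ± 0.48 and 0.94 ± 0.15 (edgeR adjusted p = 0.718 and 4.57e-06). The fit with both libraries left out also called 41.2% of all genes higher. Summed stromal markers were likewise high in control 1 (59118 CPM) and in heat 1 and 2 (87926 and 79385 CPM). They were lower in control 2 and 3 (7422 and 6699 CPM) and heat 3 (28083 CPM). The collagen genes COL1A1, COL1A2 and COL3A1 made up 17714, 25719 and 14795 CPM of the sum in control 1. TCF21 did not follow the sums, at 0.467, 0.437 and 0.397 CPM in controls and 1.25, 1.12 and 1.28 CPM in heat. The other matched stromal markers followed them, with DCN and LUM highest in control 1. The part of stromal RNA in the levels of STC2 and VLDLR was not tested.

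**Figure D2:**
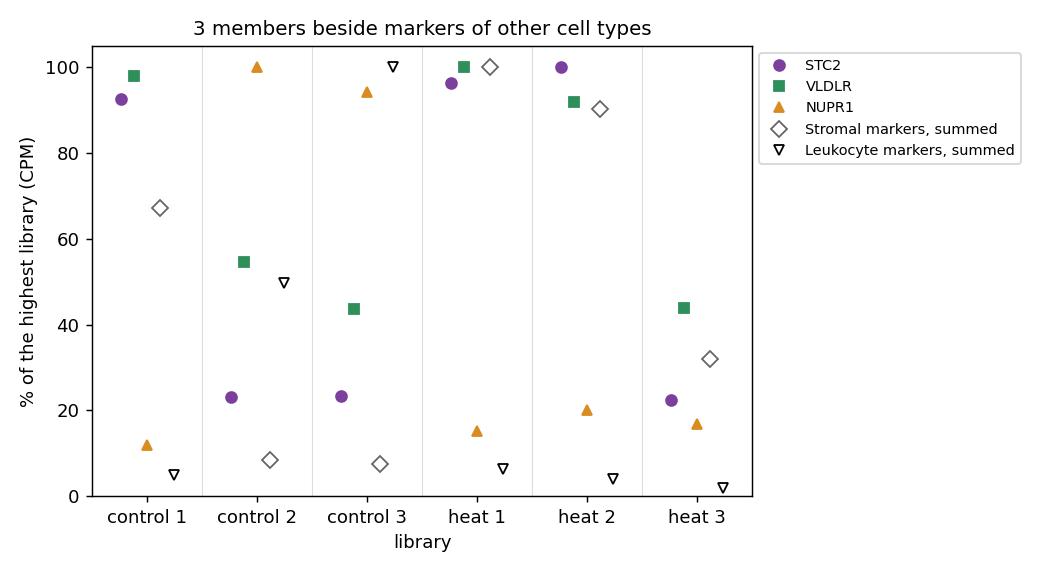
STC2, VLDLR and NUPR1 (filled symbols) and the summed markers of stromal cells and leukocytes (open symbols) in each library (x axis), each as a percentage of its own highest library in CPM (y axis). STC2 and VLDLR are high in control 1, heat 1 and heat 2, where summed stromal markers are also highest, and NUPR1 is high in control 2 and control 3, where summed leukocyte markers are highest.

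Enzymes of asparagine and serine synthesis did not move together. ASNS, which makes asparagine and is a standard ATF4 target, was at 50.7, 122 and 127 CPM in controls and 88.7, 87.5 and 100.5 CPM in heat. The heat libraries lay between control 1 and the other controls, and the log2 fold change was -0.11 ± 0.39 with all libraries (edgeR adjusted p = 0.856) and -0.52 ± 0.12 with control 1 and heat 3 left out (edgeR adjusted p = 4.31e-04). PHGDH, which opens the serine pathway, was at 7.41, 18.6 and 17.9 CPM in controls and 19.9, 19.6 and 24.4 CPM in heat. The heat libraries were above the controls, yet heat 1 and 2 exceeded control 2 by little, and most of the difference in means lay in control 1 (log2 fold change 0.54 ± 0.39, edgeR adjusted p = 0.354). PSAT1, the transaminase that follows PHGDH, was at 126, 131 and 106 CPM against 98.6, 90.7 and 179 CPM. PSPH, the phosphatase of the last step, was at 19.4, 21.7 and 19.3 CPM against 10.9, 11.07 and 22.1 CPM. For PSAT1 and PSPH heat 1 and 2 were below every control and heat 3 was above every control. Summed smooth muscle markers had the same arrangement, at 10240, 9984 and 10253 CPM in controls and 6962, 6727 and 14696 CPM in heat. ACTA2 made up 5600, 5547 and 5648 CPM of those sums in controls and 3584, 3480 and 8973 CPM in heat. TAGLN, MYH11, CNN1 and DES did not follow this arrangement. Heat 3 was the lowest library for MYH11, and all heat libraries lay above the controls for DES. The part of smooth muscle RNA in PSAT1 and PSPH was not tested. PSAT1 had a log2 difference of 0.02 ± 0.36 with all libraries (edgeR adjusted p = 0.972) and -0.35 ± 0.13 with control 1 and heat 3 left out (edgeR adjusted p = 0.0183), and PSPH had -0.45 ± 0.36 (edgeR adjusted p = 0.391) and, without heat 3, -0.89 ± 0.20 (edgeR adjusted p = 0.0247). The median of the 4 genes was -0.05, and -0.43 with both libraries left out.

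The mitochondrial one-carbon enzymes use serine to charge folate. SHMT2, which takes the carbon from serine, was at 17.2, 25.6 and 28.6 CPM in controls and 41.6, 43.8 and 38.0 CPM in heat. The heat libraries were close to one another and above every control, and the log2 fold change was 0.79 ± 0.30 (edgeR adjusted p = 0.113). SHMT2 (chromosome 5, 22535780 to 22540322) lies on the same chromosome as DDIT3 and MARS1 and overlaps NXPH4. MTHFD2, the next enzyme, whose span overlaps SLC4A5, was at 46.9, 56.1 and 49.9 CPM against 59.1, 53.5 and 84.9 CPM, with heat 2 below control 2 and a difference of 0.37 ± 0.30 in log2 (edgeR adjusted p = 0.403).

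The 13 cytosolic tRNA synthetases, which load amino acids onto tRNAs, were centred near 0, with a median log2 fold change of 0.03. Among them 7 were above 0 and 6 below, and the sign of that median turned with the libraries kept (-0.12 with control 1 and heat 3 left out, -0.17 without control 2, -0.22 without control 3) and with the scaling (-0.02 with DESeq2's size factors). Together they took 0.203, 0.219 and 0.208% of all counts in the controls and 0.172, 0.186 and 0.240% in the heat libraries. The group means were 0.210 ± 0.00830 and 0.199 ± 0.0359% (SD, n = 3), and the groups overlapped. Of counts on genes with a symbol outside the mitochondrial genome, the share was 0.317 ± 0.0161% in controls and 0.246 ± 0.0450% in heat. By library it was 0.300, 0.332 and 0.318% in controls and 0.214, 0.226 and 0.297% in heat. There every heat library was below every control, though heat 3 and control 1 almost met, whereas the groups overlapped over all counts. Summed CPM overlapped as well, at 1930 to 2535 in controls and 1759 to 2169 in heat. The separation thus depended on which counts formed the total.

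**Figure D3:**
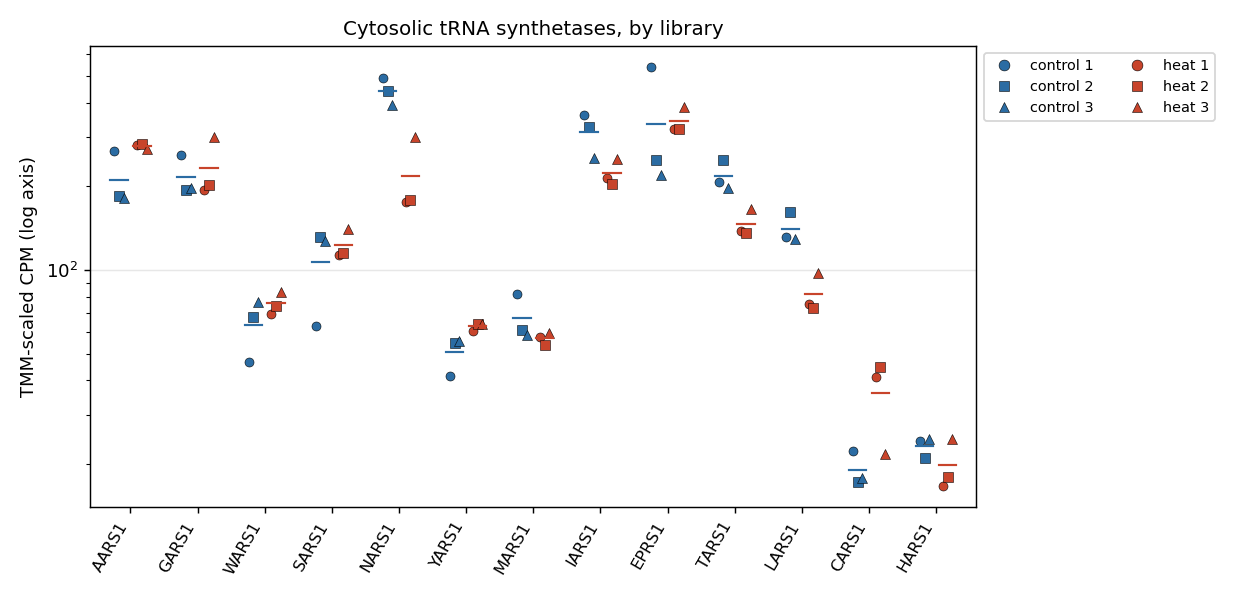
Level of each cytosolic tRNA synthetase (x axis) in TMM-scaled CPM (y axis, log scale), with 1 point per library, blue for control and red for heat, marker shape for the library number, and short lines for the group means (n = 3). All heat libraries lie below all controls for NARS1, IARS1, TARS1 and LARS1 and above them for AARS1 and YARS1.

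At the lower end were NARS1, LARS1, TARS1 and IARS1, the enzymes for asparagine, leucine, threonine and isoleucine, which were the 4 members whose heat libraries all lay below the controls. NARS1 was at 491, 443 and 391 CPM in controls and 175, 179 and 302 CPM in heat. LARS1 was at 132, 162 and 129 CPM in controls and 75.3, 73.1 and 97.7 CPM in heat. In both genes heat 3 stood between the other heat libraries and the controls. The log2 fold change was -1.01 ± 0.37 for NARS1 and -0.78 ± 0.29 for LARS1 (edgeR adjusted p = 0.0990 and 0.11), and without heat 3 it was -1.34 ± 0.25 and -0.94 ± 0.22 (edgeR adjusted p = 0.0164 and 0.0258). TARS1 went from 207, 249 and 198 CPM in controls to 139, 135 and 165 CPM in heat, and IARS1 from 361, 327 and 254 CPM to 214, 204 and 249.9 CPM, so heat 3 and control 3 almost touched for IARS1. The span of TARS1 overlaps LOC100738904, so the division of its reads is uncertain. Log2 fold changes of TARS1 and IARS1 were -0.57 ± 0.30 and -0.49 ± 0.32 (edgeR adjusted p = 0.210 and 0.303).

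At the upper end was CARS1, the cysteine enzyme. It was at 22.2, 17.2 and 17.8 CPM in controls and 41.2, 44.9 and 21.8 CPM in heat, so heat 1 and 2 were well above the controls and heat 3 lay below control 1. CARS1 differed by 0.91 ± 0.35 on the log2 scale, with an edgeR adjusted p of 0.115, and 1.16 ± 0.22 without heat 3 (edgeR adjusted p = 0.0167). AARS1, the alanine enzyme, was at 267, 185 and 182 CPM in controls and 281, 284 and 273 CPM in heat. The heat libraries were within a ratio of 1.04 of each other and control 1 was close beneath them, giving a difference of 0.40 ± 0.32 on the log2 scale (edgeR adjusted p = 0.395). YARS1, for tyrosine, was at 41.5, 54.6 and 55.3 CPM against 60.5, 63.9 and 63.7 CPM, and differed by 0.31 ± 0.27 on the log2 scale.

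The other synthetases overlapped between the groups. WARS1, for tryptophan, was at 46.8, 67.5 and 76.5 CPM in controls and 69.5, 74.3 and 83.6 CPM in heat. GARS1, for glycine, was at 259, 194 and 196 CPM against 194, 202 and 302 CPM, and the highest library of each group was the one that stood apart. SARS1, for serine, was at 62.8, 131 and 128 CPM against 114, 115 and 140.2 CPM, with control 1 alone low. EPRS1, which charges glutamate and proline, was at 538, 249 and 219 CPM against 322, 322 and 386 CPM, with control 1 alone high. HARS1, for histidine, was at 24.2, 21.0 and 24.6 CPM against 16.7, 18.0 and 24.7 CPM. Log2 fold changes of WARS1, GARS1, SARS1, EPRS1, HARS1 and MARS1 lay between -0.24 and 0.25, and their edgeR adjusted p-values between 0.565 and 0.964.

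**Figure D4:**
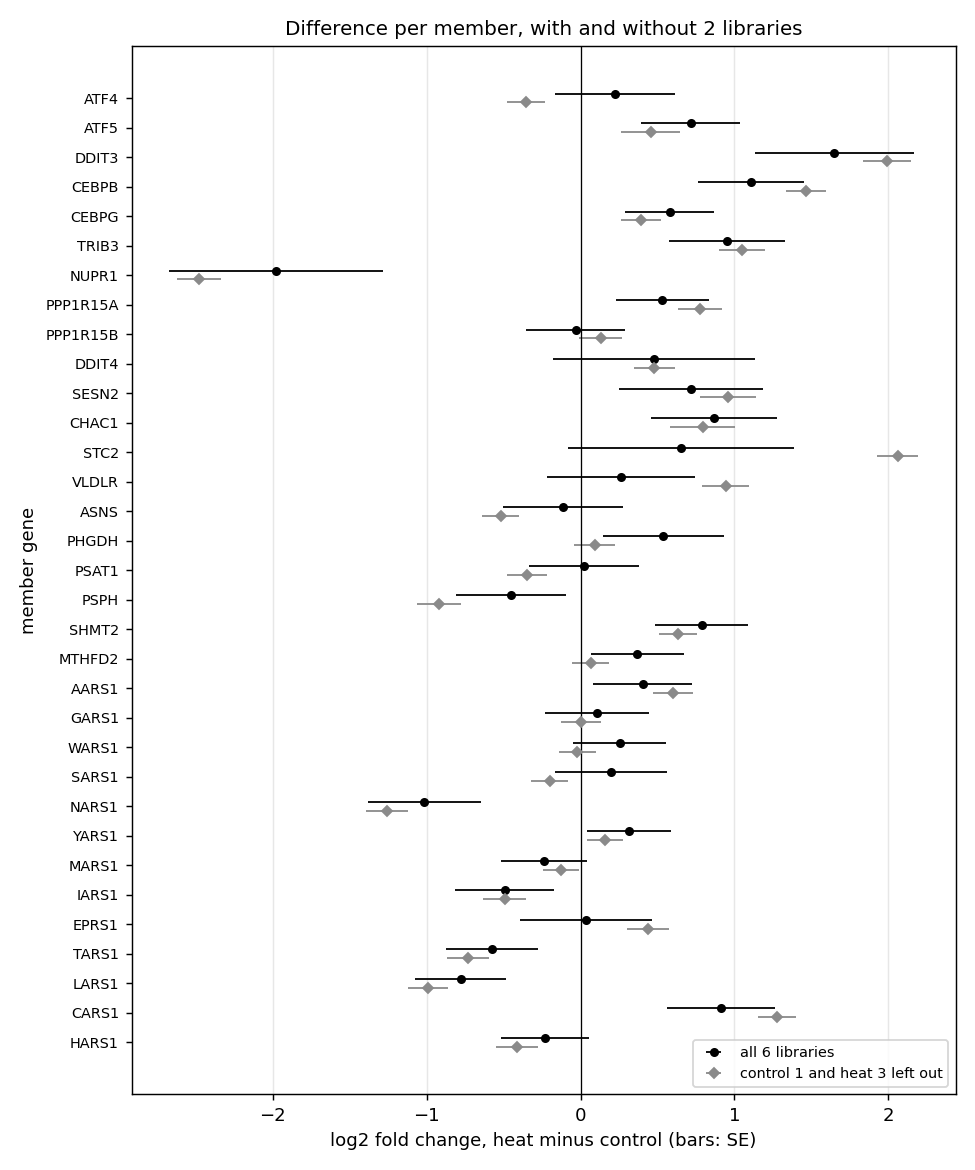
Log2 fold change, heat minus control, of each of the 33 genes (y axis) with all 6 libraries (black circles) and with control 1 and heat 3 left out (grey diamonds), where bars are standard errors. The range runs from NUPR1 at -1.98 to DDIT3 at 1.65 with all libraries, and ATF4, ASNS and PSAT1 are below 0 once both libraries are left out.

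Other genes of the pathway were read from 6 lists of known function, of whose 71 symbols 67 matched and 63 were tested. Of these, 4 rose and 3 fell (6.35 and 4.76%), shares near the 6.71 and 4.32% of all tested genes. Without control 2, control 3, heat 1 or heat 2 none of the 7 was called, without control 1 the lists held 11 higher and 7 lower (16.9 and 10.8%, against 19.6 and 12.3% of all genes), and without heat 3 they held 10 higher and 11 lower (15.4 and 16.9%, against 18.4 and 17.7%).

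Upstream of ATF4, 1 of 4 eIF2alpha kinases fell and the other 3 did not pass. EIF2AK2, the double-stranded RNA sensor PKR, which interferon also induces, was at 137, 507 and 445 CPM in controls and 41.4, 46.2 and 109 CPM in heat. Every heat library was below every control (log2 fold change -2.47 ± 0.62, edgeR adjusted p = 0.0458). Control 2 and 3, where the summed leukocyte markers were highest, were far above control 1. Heat 3, with the lowest leukocyte sum (1.31 CPM), had the highest EIF2AK2 level in heat. The part of leukocyte RNA in the EIF2AK2 level was not tested. EIF2AK3, the endoplasmic reticulum sensor PERK, was at 79.3, 59.7 and 46.7 CPM against 126, 109.6 and 59.2 CPM and EIF2AK4, the amino acid sensor GCN2, at 69.8, 44.2 and 40.7 CPM against 57.6, 60.8 and 42.2 CPM. EIF2AK1, the heme sensor HRI, was at 25.6, 15.02 and 15.1 CPM against 26.9, 26.1 and 26.4 CPM. Of 6 tested subunits of eIF2 and of its exchange factor eIF2B none passed in edgeR. Of the 6, 2 had unadjusted p below 0.05 (edgeR), against 33.9% of all tested genes. DESeq2 called 1 higher and 1 lower, against 14.9 and 12.6% of all genes. Those with the highest means, EIF2S2 and EIF2S1, were at 282 ± 87.9 against 98.2 ± 80.7 CPM and 87.3 ± 31.1 against 40.4 ± 30.7 CPM (SD, n = 3).

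Of 9 other cytosolic synthetases and scaffold proteins, 1 rose. VARS1, the valine enzyme, was at 15.6, 7.55 and 11.2 CPM in controls and 36.3, 41.9 and 35.9 CPM in heat. All 3 heat libraries, heat 3 included, were above every control by more than the range within either group, and the log2 fold change was 1.73 ± 0.34 (edgeR adjusted p = 0.0332). None of 17 mitochondrial synthetases passed in edgeR, and their median log2 fold change was 0.01. Of the 17, 4 had unadjusted p below 0.05 (edgeR), against 33.9% of all tested genes. DESeq2 called 2 higher and 1 lower, against 14.9 and 12.6% of all genes. The mitochondrial enzymes with the highest means, IARS2 and RARS2, were at 39.5 ± 11.09 against 27.0 ± 4.11 CPM and 31.5 ± 2.20 against 15.2 ± 4.63 CPM (SD, n = 3).

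**Figure D5:**
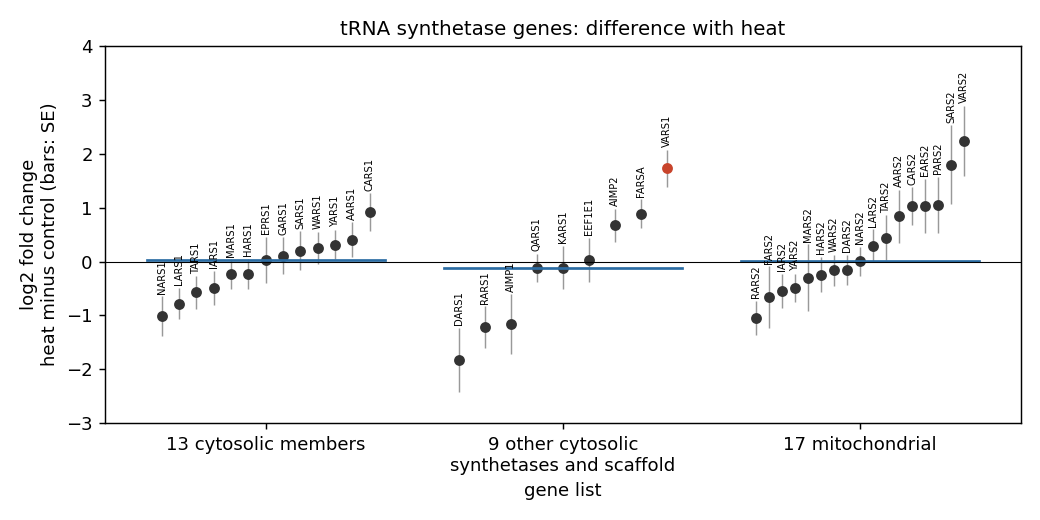
Log2 fold change, heat minus control (y axis, bars are standard errors), of the 13 cytosolic members, 9 other cytosolic synthetases and scaffold proteins, and 17 mitochondrial synthetases (x axis), 1 point per gene and a blue line at each median. VARS1, in red, is the 1 gene shown that passed the edgeR test, and the medians of the lists are 0.03, -0.11 and 0.01.

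Of 14 tested amino acid and one-carbon enzymes outside the 33, 1 rose and 1 fell. PYCR1, which makes proline in mitochondria, was at 5.88, 10.9 and 13.7 CPM in controls and 39.3, 41.0 and 38.5 CPM in heat. The heat libraries were within 3 CPM of one another and all above the controls (log2 fold change 1.96 ± 0.37, edgeR adjusted p = 0.0314). MTHFD2L, the paralogue of MTHFD2, was at 5.54, 4.37 and 4.71 CPM against 1.55, 1.26 and 1.56 CPM (log2 fold change -1.74 ± 0.35, edgeR adjusted p = 0.0339), and again the 3 heat libraries lay together. Of 13 other regulators and targets, HERPUD1 and JDP2 rose and NFE2L2 fell. JDP2, a repressor of the AP-1 family, was at 12.3, 9.56 and 7.54 CPM in controls and 31.3, 31.3 and 18.6 CPM in heat, with heat 3 the lowest heat library (log2 fold change 1.47 ± 0.35, edgeR adjusted p = 0.0416). HERPUD1, a degradation factor of the endoplasmic reticulum, had a log2 fold change of 2.63 ± 0.42 and NFE2L2, the antioxidant regulator, one of -1.42 ± 0.32 (edgeR adjusted p = 0.0276 and 0.0390).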

How the data were processed

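The deposited table of raw read counts per Ensembl gene was used as made by the authors. Per the submitters' processing notes, the tools were STAR, Trim Galore and FastQC 0.11.4, with the Sscrofa11.1 build. Neither the counting tool nor the annotation release is given in the sources used here. A deposited normalized table was not used, because it holds the same counts of fewer genes, each divided by 1 constant per library. Symbols came from a reference table for 15623 of 35670 identifiers, and coordinates from RefSeq (Sscrofa11.1), by symbol for 20 members and by the earlier symbol for 13.

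Genes passing edgeR's filterByExpr (minimum count 10) entered edgeR's quasi-likelihood test (version 4.0.16, R 4.3.3), two-sided, with TMM factors, robust dispersions and Benjamini-Hochberg adjustment over all 14242 tested genes, called below 0.05. SE is the absolute log2 fold change over the square root of F. Alternatives were 2 other scalings, 2 filters, the replicate number as a block, DESeq2 1.42.0, limma-voom (limma 3.58.1), a stricter threshold, each library left out, control 1 and heat 3 left out, and near-identical libraries summed. Members and lists were chosen with earlier results of these data known, and no set test is reported. The naming rule gives every member, and from other lists the called genes or, with none, the 2 highest in mean. EIF2AK1, EIF2AK3, EIF2AK4 and EIF2B4 were added after their values were seen. The granulosa markers FOXL2, CYP19A1 and HSD3B1 had no matching symbol and are not analysed here.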

Additional observations from a re-analysis of the deposited data

How the results depend on the processing

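Of the 33 genes, 16 kept a log2 fold change above 0 and 8 one below 0 under all 16 alternatives that tested them, and 9 changed sign (ATF4, PPP1R15B, VLDLR, ASNS, PSAT1, GARS1, WARS1, SARS1 and EPRS1). The causes of the changes below were not tested. With control 1 and heat 3 left out, ATF4 and PSAT1 were called lower (-0.35 and -0.35), 15 members were higher and 10 lower, and among all genes 6285 were higher and 5857 lower, against 956 and 615 with all libraries. The median log2 fold change of the regulators was then 0.45, of asparagine and serine synthesis -0.43 and of the one-carbon enzymes 0.35. Leaving out 1 library gave 0 to 5 members higher and 0 to 3 lower, 0 to 3021 genes higher and 0 to 2713 lower, and a synthetase median between -0.22 and 0.076. With near-identical libraries summed, 2 genes were higher and 0 lower and the synthetase median was -0.17. DESeq2 called 2 members higher and 3 lower (2118 and 1792 genes). Without a filter 1 member, DDIT3, and 1607 genes were higher, a filter of 10 CPM in 3 samples left 532 higher and 396 lower, and an adjusted p below 0.01 left 9 and 1. The share of counts of the synthetases differed by -0.0714 percentage points over genes with a symbol, against -0.0106 over all counts.

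With the replicate block 1 member was higher (DDIT3) and 1 lower (NUPR1), with 2104 and 1300 genes. Deviations of libraries with the same number correlated at 0.30, -0.23 and 0.22, and control 2 correlated best with heat 3. With 1 near-identical pair in each group, these values mostly reflect which library stands apart. They cannot decide whether the numbers pair the libraries. The numbers were not taken to pair them, because the labels do not say so.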
